A study of Mus musculus with 4 samples.

Results

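Genes of antigen receptor recombination and of the B lineage were followed in early T lineage progenitors (ETP), the most immature precursors in the thymus, from old and young mice. The 10 genes, chosen by symbol, were *Rag1*, *Rag2*, *Dntt*, *Ebf1*, *Pax5*, *Cd79a*, *Cd79b*, *Blk*, *Pou2af1* and *Igj*, and all 10 had a row among the 23361 genes of the authors' table. Whole transcriptome sequencing covered 2 libraries from 72 week old and 2 from 4 to 6 week old female C57BL6 mice. Neither age carried a transgene or received a treatment, according to the labels, and no source used here states if mice were pooled or if each library of an age had its own. P-values below thus rest on the spread within pairs of libraries that may be technical repeats. The sort took thymocytes that were Lin- CD44+ CD25- CD117+, and the lineage cocktail held antibodies to the B cell antigens B220 and IgM, to CD3, CD8 and the T cell receptors, to NK-1.1 and to the myeloid antigens Gr-1 and CD11b.

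Old replicates 1 and 2 held 11816478 and 4839341 fragments, against 16658864 and 6414915 in young replicates 1 and 2. Levels are given as CPM, fragments scaled to a common library total by TMM, and comparisons of level between genes use the authors' FPKM, which is scaled by transcript length. *Kit*, which encodes CD117, was at 935.9 and 945.1 CPM in old and 763.8 and 1096 in young ETP. *Ptcra*, which encodes the pre-T cell receptor chain of later thymocytes, had 0 fragments in all 4 libraries. Whether this reflects the cells or the counting was not tested. Other genes of later thymocytes were detected. *Cd3e*, for a chain of the CD3 complex, was at 11.2 and 36.2 CPM in old and 3.33 and 2.88 CPM in young ETP (log2 fold change 2.90, adjusted p = 0.379 from edgeR and 0.00142 from DESeq2). *Cd8a*, for a chain of the CD8 coreceptor, was at 7.15 and 22.7 CPM in old and 1.64 and 1.92 CPM in young ETP. *Cd8b1*, for the other chain, had 6 and 0 fragments in old and 9 and 2 in young ETP. *Cd247* was lower in old ETP, at 10.6 and 9.80 CPM against 16.8 and 23.1 CPM. *Cd4* was lower too, at 4.66 and 8.28 CPM against 11.3 and 10.4 CPM. The list of early T lineage and DN thymocyte genes held 22 outside the 10. Of these 9 had both old libraries above both young, 4 had both below and 9 overlapped. Among all genes with any fragment 16.2% lay above and 14% below. In bulk libraries such as these, fewer cells of a type and less RNA per cell cannot be told apart.

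The RAG1 and RAG2 proteins form the recombinase that cuts antigen receptor genes at recombination signals, and *Dntt* encodes TdT, which adds nucleotides that no template specifies where the cut ends are joined. Developing T cells and B cells both use this machinery, and lymphoid-primed progenitors begin to express its genes before either lineage is fixed. B lineage fate is set by EBF1 and then PAX5, transcription factors that switch on genes of the pre-B and B cell receptors. Notch signalling in the thymus turns progenitors away from that fate.

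Genes of the recombinase and TdT were at lower levels in old ETP. *Dntt* was at 781.8 and 396.5 CPM in old replicates 1 and 2 and at 1332 and 1271 CPM in young replicates 1 and 2. *Rag2* was at 20.9 and 43.6 CPM in old and at 47.0 and 96.8 CPM in young ETP. *Rag1* was at 8.56 and 12.2 CPM in old and at 13.6 and 18.6 CPM in young ETP. For each of the 3 genes both old libraries lay below both young libraries by CPM, with a wide gap for *Dntt* and a narrow one for *Rag1* and *Rag2*, where old replicate 2 came close to young replicate 1. The same order held on the authors' FPKM scale, but with other gaps. There the higher old and the lower young library were at 160.5 and 194.9 FPKM for *Dntt*, 3.29 and 7.04 for *Rag2* and 0.504 and 0.826 for *Rag1*. By CPM 14% of all genes with any fragment had both old libraries below both young. By FPKM 21.4% of the genes tested did.

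**Figure D1:**
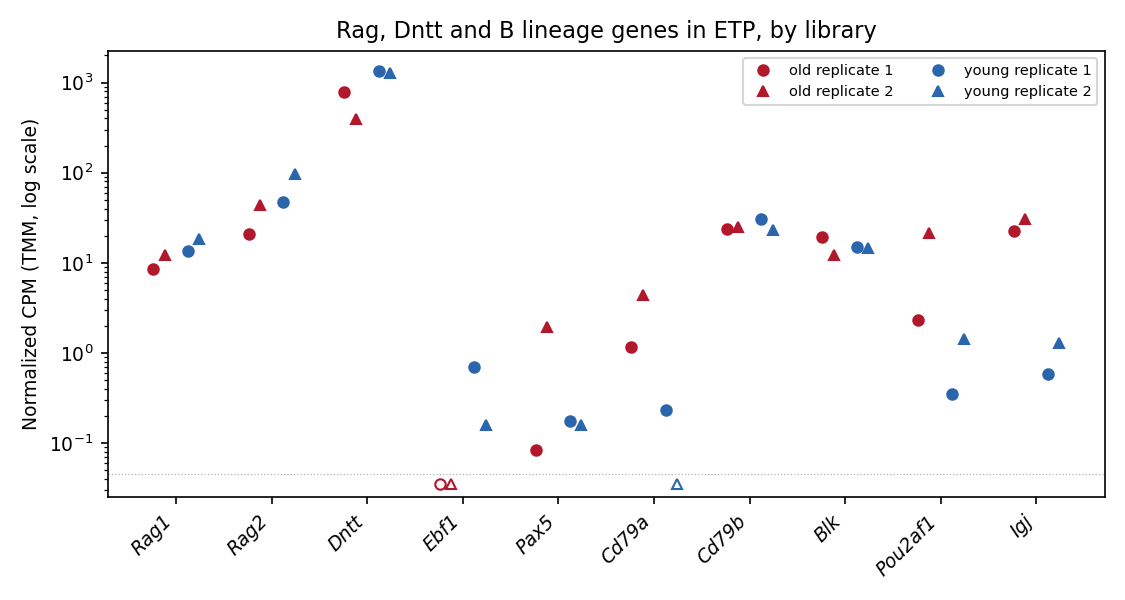
Normalized CPM (log axis) of the 10 genes in each library, old ETP in red to the left of young ETP in blue, with circles for replicate 1 and triangles for replicate 2. Open symbols under the dotted line mark 0 fragments. *Rag1*, *Rag2* and *Dntt* lie lower in old ETP, whereas *Igj*, at 22.3 and 30.9 CPM in old and 0.585 and 1.28 CPM in young ETP, lies higher.

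The mean of *Dntt* was 589 ± 272 CPM in old and 1302 ± 43.5 CPM in young ETP (SD, n = 2 libraries each), so the log2 fold change was -1.14 (standard error 0.40). That of *Rag2* was 32.3 ± 16.0 CPM in old and 71.9 ± 35.2 CPM in young ETP, and its log2 fold change was -1.16 (standard error 0.51). Neither passed edgeR's quasi-likelihood test with Benjamini-Hochberg adjustment over all genes tested (adjusted p = 0.798 for *Dntt* and 0.977 for *Rag2*). *Rag2* is among the genes the study selected for display from these libraries, so its direction is a description. *Rag1* averaged 10.4 ± 2.57 CPM in old and 16.1 ± 3.50 CPM in young ETP, 0.644 times as high. It missed the filter, for which 2 libraries had to reach 1 FPKM, because it did so in 1 young library only, at 1.00 FPKM. In an edgeR fit with the filterByExpr filter, which is based on counts, its log2 fold change was -0.62 (standard error 0.39, adjusted p = 0.999). The size of both tested differences rests on single libraries. Without old replicate 2 the fold change of *Dntt* was -0.76 and that of *Rag2* -1.79, whereas without old replicate 1 they were -1.68 and -0.67. Without young replicate 2 that of *Rag2* was -0.55.

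Levels of the 3 genes were far apart. *Dntt* took 0.0796% and 0.0376% of all fragments in old and 0.137% and 0.124% in young ETP. Per length, *Rag2* was 4.98 and 7.24 times as high as *Rag1* in old and 7.03 and 10.6 times as high in young ETP, so the libraries of the ages overlapped in this ratio. *Dntt* was 64.0 and 15.5 times as high as *Rag2* in old and 48.7 and 22.4 times in young ETP. This ratio was higher in replicate 1 at both ages and also overlapped. Within each age *Rag1* and *Rag2* had their higher CPM in replicate 2.

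**Figure D2:**
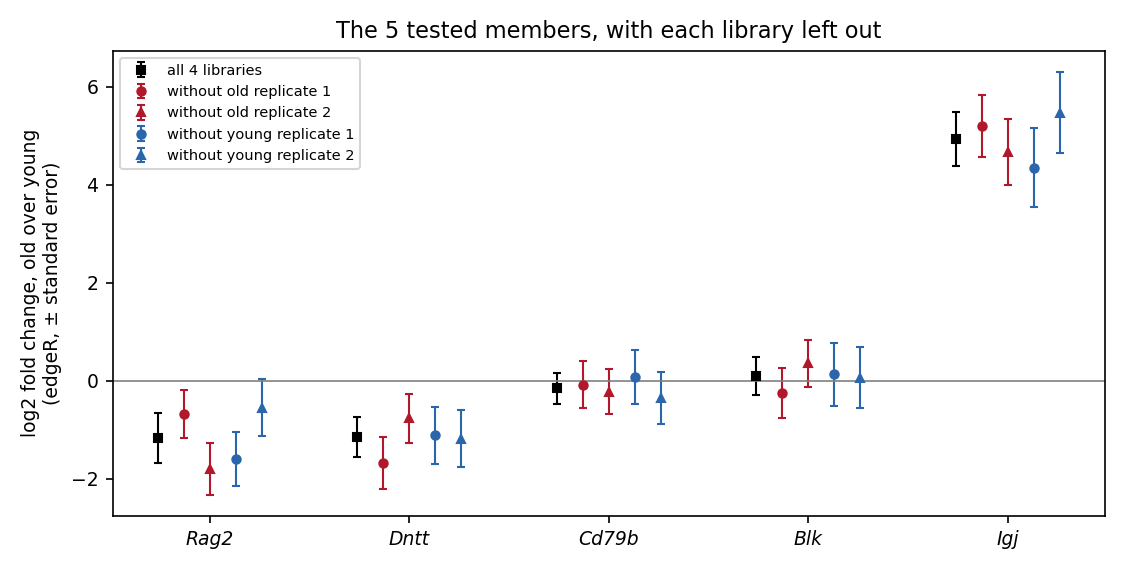
Log2 fold change of old over young ETP with its standard error from edgeR for the 5 tested genes, with all 4 libraries (black) and with each library left out. *Rag2* and *Dntt* stay below 0 in each of these fits, at -1.79 to -0.55 and -1.68 to -0.76, *Cd79b* and *Blk* cross 0, and *Igj* stays between 4.35 and 5.48.

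*Rag1* and *Rag2* are neighbours on chromosome 2 that run towards each other, *Rag2* on the plus strand (chr2:101624718-101632529) and *Rag1* on the minus strand (chr2:101638282-101649501, GRCm38, GENCODE M21), with 5752 bases between them. Exons of *B230118H07Rik*, on the minus strand, share positions with both genes, and whether counting used strand is not stated in any source used here. Its own level was 9.81 and 12.4 CPM in old and 8.02 and 9.13 CPM in young ETP (log2 fold change 0.37), so it was not lower in old ETP as *Rag1* and *Rag2* were. *Dntt* lies on chromosome 19 (chr19:41029275-41059525, plus strand) and shares no exonic position with another annotated gene. The promoter windows of the 3 genes that were lower together are printed in this paragraph, from 250 bases before to 50 bases after the start (RefSeq, GRCm38.p6), at chr2:101649483-101649782 on the minus strand for *Rag1*, chr2:101624462-101624761 on the plus strand for *Rag2* and chr19:41029025-41029324 on the plus strand for *Dntt*. Capitals mark the E-box hexamers CAGCTG and CAGGTG, bound by E proteins such as the product of *Tcf3*, read on both strands.
Rag1: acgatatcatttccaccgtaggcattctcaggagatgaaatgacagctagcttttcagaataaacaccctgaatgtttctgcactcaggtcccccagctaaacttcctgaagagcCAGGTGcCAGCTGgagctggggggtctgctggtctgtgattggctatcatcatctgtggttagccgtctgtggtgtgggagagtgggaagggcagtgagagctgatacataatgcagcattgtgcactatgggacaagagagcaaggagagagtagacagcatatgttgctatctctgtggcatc
Rag2: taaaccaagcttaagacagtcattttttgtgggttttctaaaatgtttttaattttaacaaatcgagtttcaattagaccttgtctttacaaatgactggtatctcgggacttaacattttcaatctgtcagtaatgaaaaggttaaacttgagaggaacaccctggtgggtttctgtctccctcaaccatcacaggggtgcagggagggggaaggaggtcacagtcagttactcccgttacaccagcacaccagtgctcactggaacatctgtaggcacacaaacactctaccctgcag
Dntt: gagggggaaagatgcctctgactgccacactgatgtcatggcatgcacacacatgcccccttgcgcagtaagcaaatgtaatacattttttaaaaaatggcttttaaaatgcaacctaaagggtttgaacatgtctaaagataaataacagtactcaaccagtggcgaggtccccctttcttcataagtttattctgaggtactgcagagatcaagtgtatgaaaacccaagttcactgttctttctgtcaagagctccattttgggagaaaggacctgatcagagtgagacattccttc
The *Rag1* window held 2 such hexamers, with a single base between them, and those of *Rag2* and *Dntt* held 0. An E-box of these letters was in 32.9% of all 32851 promoter windows. The octamer ATTTGCAT, read by POU factors and their coactivator encoded by *Pou2af1*, was in 1.74% and the EBF motif (TCCC and GGGA with any 2 bases between them) in 0.904% of all windows, both strands searched, and neither was in any of the 9 windows of the 8 genes that had one. *Cd79b* and *Blk* had none in the table used. Such matches describe letters, not binding.

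The other genes of V(D)J recombination and end joining also had mostly lower estimates in old ETP. Of 21 others with a row, 19 were tested, 15 with lower and 4 with higher estimates. Their median log2 fold change was -0.34, and that of all genes tested was -0.03. By edgeR and by DESeq2 0 passed, and 2 were lower and 0 higher at an unadjusted p under 0.05 from edgeR. *Xrcc6*, which encodes the Ku70 subunit that holds broken ends, was at 213 and 135 CPM in old and 325 and 284 CPM in young ETP, and *Xrcc5*, for its partner Ku80, at 52.6 and 45.8 CPM in old and 72.6 and 75.0 CPM in young ETP. *Smc1a* and *Smc3*, which encode subunits of the cohesin ring that folds receptor loci, were at 381 ± 9.04 and 346 ± 93.6 CPM in old and at 562 ± 49.3 and 596 ± 44.9 CPM in young ETP (adjusted p = 0.9995 and 0.886 from edgeR). Genes with estimates near 0 included *Hmgb2*, for a DNA-bending cofactor of RAG, at -0.01. *Hmgb1*, also on the list, had an estimate of -0.54, at 213 and 155 CPM in old and 298 and 236 CPM in young ETP. *Polm*, which encodes a DNA polymerase related to TdT, went the other way. It had 50 and 38 fragments (4.16 and 8.28 CPM) in old and 11 and 9 fragments (0.644 and 1.44 CPM) in young ETP and was below the filter.

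**Figure D3:**
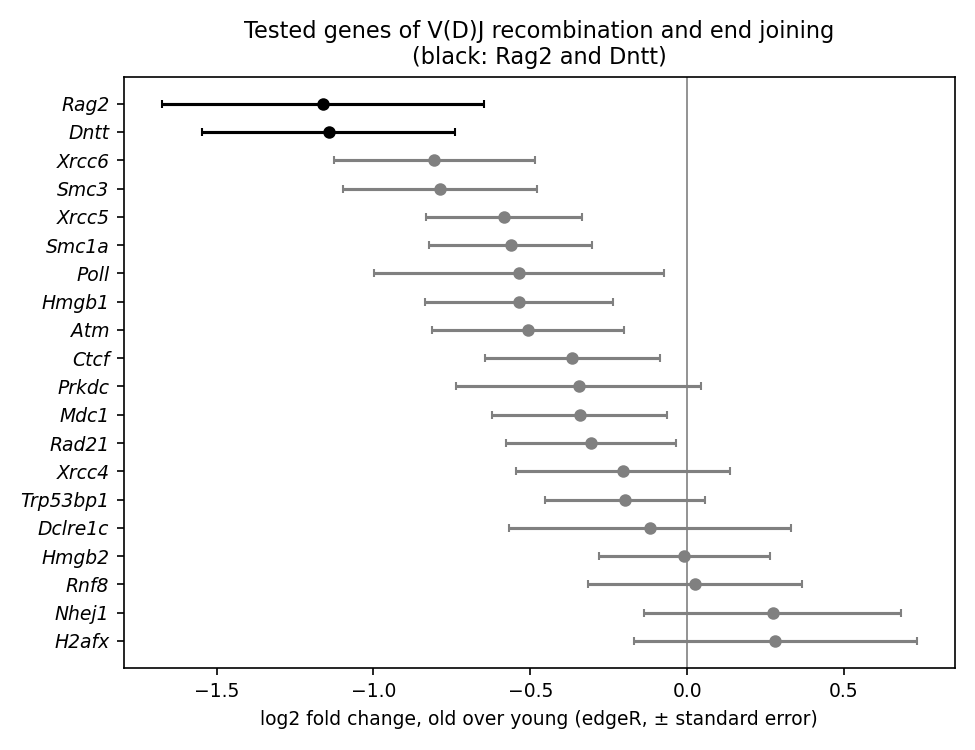
Log2 fold change of old over young ETP with its standard error from edgeR for 20 of the 21 tested genes of V(D)J recombination and end joining. *Rag2* and *Dntt* (black) lie at the low end, at -1.16 and -1.14, and *H2afx*, at 0.28, has the highest estimate plotted.

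Regulators of *Rag* expression and lymphoid priming gave smaller estimates. Of 28 with a row, 25 were tested, 17 with lower and 8 with higher estimates in old ETP and a median of -0.21, and 0 passed edgeR, with 0 lower and 1 higher at an unadjusted p under 0.05 and the same 1 called by DESeq2. *Tcf3*, which encodes the E2A proteins that activate *Rag* genes, was at 136 and 83.2 CPM in old and 124 and 113 CPM in young ETP, and *Foxo1*, for another activator of the *Rag* locus, at 63.1 and 63.2 CPM in old and 65.0 and 45.8 CPM in young ETP, with overlapping libraries in both cases. *Ikzf1*, for the lymphoid factor Ikaros, averaged 911 ± 25.4 CPM in old and 1048 ± 89.7 CPM in young ETP, and *Myb*, for a factor of progenitors, 663 ± 118 CPM in old and 982 ± 83.5 CPM in young ETP (SD, n = 2 libraries each). That gene was *Id2*, for an inhibitor of E proteins, at 45.6 and 339 CPM in old and 17.5 and 44.4 CPM in young ETP. Its log2 fold change of 2.64 was 0.55 without old replicate 2. Of the early T lineage and DN thymocyte genes outside the 10, 22 had a row and 12 were tested, 7 with lower and 5 with higher estimates (median -0.22), with 0 called by edgeR, 2 higher and 1 lower at an unadjusted p under 0.05 and 1 called by DESeq2. *Notch1*, for the receptor that starts T lineage commitment, averaged 770 ± 273 CPM in old and 1239 ± 48.6 CPM in young ETP, and *Tcf7*, for the factor TCF1, 318 ± 23.1 CPM in old and 360 ± 67.6 CPM in young ETP.

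The factors that set B lineage fate were close to the limit of detection. *Ebf1* had 0 fragments in both old libraries and 12 and 1 in young replicates 1 and 2. A count of 0 allows up to 3 fragments, and the pooled young level was 3.09 times that floor over both old libraries together. The ratio of old to young over pooled fragments was 0, with a 95% exact interval from 0 to 0.461 for counting error only. Both values rest on young replicate 1, which held 12 of the 13 young fragments. *Pax5* had 1 and 9 fragments in old and 3 and 1 in young ETP, and the ratio of old to young over pooled fragments was 3.51 with a 95% exact interval from 1.01 to 15.3 for counting error only. Without old replicate 2 the ratio of mean levels was 0.495, so the direction turned. The *Pax5* locus on chromosome 4 shares exonic positions with *5730488B01Rik* and *Gm12462*.

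The signalling chains of the B cell receptor, encoded by *Cd79a* and *Cd79b*, are made as partners in B cells but were present at very different levels in ETP. *Cd79b* was at 23.6 and 24.8 CPM in old and at 30.8 and 22.9 CPM in young ETP. *Cd79a* had 14 and 20 fragments (1.16 and 4.36 CPM) in old and 4 and 0 in young ETP (0.234 CPM in young replicate 1). *Cd79b* therefore had 20.3 and 5.70 times as many fragments as *Cd79a* in old ETP and 131.5 times as many in young replicate 1. The libraries of the ages overlapped for *Cd79b* (log2 fold change -0.15, standard error 0.32, adjusted p = 0.9995 from edgeR, and 0.08 without young replicate 1). For *Cd79a* both old libraries lay above both young libraries, with a pooled ratio of 11.9 (95% exact interval 4.26 to 46.3, counting error only). It was below the FPKM filter, and with filterByExpr edgeR gave a log2 fold change of 3.97 (standard error 1.20, adjusted p = 0.554). The ratio of mean levels was 23.6, but 9.95 without old replicate 2, 11.8 without young replicate 2 and 37.2 without old replicate 1. Without young replicate 1 the young level was 0 and gave no ratio.

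*Blk*, which encodes a kinase of the Src family that acts in B cells and in some T cells, was at 19.3 and 12.2 CPM in old and at 15.1 and 14.4 CPM in young ETP. Its log2 fold change was 0.10 (standard error 0.38, adjusted p = 0.9995 from edgeR), and the sign turned to -0.14 on the log2(FPKM + 1) scale and to -0.24 without old replicate 1. A standard error of this size leaves moderate changes in either direction undetected.

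*Pou2af1* encodes OBF1, a coactivator of octamer factors needed for antibody responses. It was at 2.33 and 21.6 CPM (28 and 99 fragments) in old and at 0.351 and 1.44 CPM (6 and 9 fragments) in young ETP. Both old libraries lay above both young libraries by CPM, but old replicate 2 stood far above old replicate 1. The ratio of mean levels was 13.3, and 2.60 without old replicate 2. It was below the FPKM filter, and with filterByExpr edgeR gave a log2 fold change of 3.87 (standard error 1.29, adjusted p = 0.631).

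*Igj* encodes the J chain that joins IgM and IgA into polymers and is a hallmark of plasma cells. It had 268 and 142 fragments (22.3 and 30.9 CPM) in old and 10 and 8 fragments (0.585 and 1.28 CPM) in young ETP. The old libraries were both well above the young, and here they were close to each other. The mean was 26.6 ± 6.12 CPM in old and 0.933 ± 0.492 CPM in young ETP (SD, n = 2 libraries each), 28.5 times as high, and 20.8 to 45.5 times as high with any library left out. The log2 fold change was 4.93 (standard error 0.56), with an adjusted p of 0.325 from edgeR and 8.4e-12 from DESeq2. *Igj* passed the filter only through the old libraries, at 4.51 and 3.92 FPKM, against 0.149 and 0.194 FPKM in young ETP. Its p-values are therefore descriptions. The study had selected *Igj* for display from these libraries, so its direction is not independent evidence. Its promoter window on chromosome 5 (chr5:88527848-88528147, minus strand), shown because *Igj* had the largest fold among the 5 tested genes, held 1 E-box hexamer, in capitals, just past the start.
Igj: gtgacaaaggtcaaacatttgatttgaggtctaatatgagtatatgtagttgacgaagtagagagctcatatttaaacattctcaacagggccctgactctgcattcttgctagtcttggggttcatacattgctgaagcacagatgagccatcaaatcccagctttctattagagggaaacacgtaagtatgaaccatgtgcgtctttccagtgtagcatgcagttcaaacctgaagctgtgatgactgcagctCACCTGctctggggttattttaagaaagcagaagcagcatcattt

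By edgeR 0 of the 5 tested genes passed an adjusted p under 0.05, and the background was 0% of the 10080 genes tested. At an unadjusted p under 0.05 there were 2, *Dntt* and *Igj*, where 5.56% of all genes tested lay (4.65% higher and 0.913% lower in old ETP). DESeq2 called 1, *Igj*, and 2.23% of all genes. *Igj* entered these counts through a filter that it passed only in the old libraries, where it was high. Of all 10 genes, edgeR called 4 with no filter on low values (*Dntt*, *Cd79a*, *Pou2af1* and *Igj*), where 2.97% of 17112 genes were called. Among the 5 it called 1 without old replicate 1 (*Igj*, background 2.19%) and 3 with the table's replicate number as a term (*Rag2*, *Dntt* and *Igj*, background 7.71%). Over all 10 genes, 3 had both old libraries above both young (*Cd79a*, *Pou2af1* and *Igj*), 4 had both below (*Rag1*, *Rag2*, *Dntt* and *Ebf1*) and 3 overlapped, where 16.2% and 14% of the 17112 genes with any fragment lay above and below. Among the tested genes 16.1% lay above and 15.5% below by CPM, and 5.74% above and 21.4% below by FPKM, a scale on which old libraries were lower in general. The smallest two-sided p of an exact permutation test is 0.333 in this design, so single genes were not tested that way.

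In order of level per length, old ETP had *Dntt* at 106 ± 77.5 FPKM, *Cd79b* at 7.63 ± 2.303, *Igj* at 4.21 ± 0.418, *Rag2* at 2.90 ± 0.551, *Blk* at 2.27 ± 1.39, *Pou2af1* at 1.29 ± 1.29, *Cd79a* at 0.667 ± 0.374, *Rag1* at 0.479 ± 0.0348 and *Pax5* at 0.251 ± 0.309 FPKM (SD, n = 2 libraries each), with *Ebf1* listed at 0. Young ETP had *Dntt* at 269 ± 105 FPKM, *Cd79b* at 10.9 ± 6.08, *Rag2* at 7.88 ± 1.18, *Blk* at 2.51 ± 0.968, *Rag1* at 0.913 ± 0.124, *Igj* at 0.171 ± 0.0321 and *Pou2af1* at 0.123 ± 0.0735 FPKM, and *Ebf1*, *Pax5* and *Cd79a* below 0.1 FPKM. *Dntt* led at both ages by more than the spread. In old ETP the neighbours from *Rag2* down to *Pax5* did not differ beyond their spread, and in young ETP this held for *Cd79b* and *Rag2* and for *Igj* and the genes under it. Part of this spread is a scale that all genes of a library share. FPKM summed to 230420 and 122998 in old and to 281542 and 135313 in young replicates 1 and 2. *Igj* had rank 3 of the 10 in old and rank 6 in young ETP.

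Other genes of the B lineage gave mixed estimates. Of 20 early B lineage genes outside the 10, 9 were tested, 6 with higher and 3 with lower estimates in old ETP (median 0.23), with 0 called by edgeR, 2 higher at an unadjusted p under 0.05 and 2 called by DESeq2. *Fcrla*, among those called, passed the filter only through the old libraries. With the 2 tested genes *Cd79b* and *Blk* the median was 0.10, and -0.14 from limma on log2(FPKM + 1). On that scale all genes tested had a median of -0.27. Of the surrogate light chain genes of pre-B cells, *Igll1* had 4 and 2 fragments in old and 3 and 1 in young ETP. *Vpreb1* had 8 and 0 fragments in old and 10 and 3 in young ETP. *Cd24a*, the member of the list with the highest level and widely expressed in progenitors, averaged 620 ± 286 CPM in old and 369 ± 108 CPM in young ETP, and *Rasgrp3*, for an exchange factor of Ras, was at 41.7 and 280 CPM in old and 16.6 and 36.5 CPM in young ETP.

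Of 22 mature B cell genes 11 were tested, 7 with higher and 4 with lower estimates (median 0.35, and 0.06 by limma on log2(FPKM + 1)), with 0 called by edgeR, 3 higher at an unadjusted p under 0.05 and 2 called by DESeq2. Immunoglobulin constant region genes were not analysed here. The B cell marker *Ms4a1*, which encodes CD20, had 6 and 23 fragments in old and 3 and 0 in young ETP. *Cd74*, for the invariant chain of MHC class II, is also made by dendritic cells and was the most abundant of the list, at 2845 and 9057 CPM in old and 229 and 523 CPM in young ETP. *Cd180*, for a relative of the Toll-like receptors, averaged 329 ± 239 CPM in old and 191 ± 105 CPM in young ETP.

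Plasma cell genes had higher estimates. Of the 18 outside the 10, 10 were tested and all 10 had higher estimates in old ETP (median 0.73), with 5 at an unadjusted p under 0.05 from edgeR. After adjustment 0 were called by edgeR and 2 by DESeq2. At that unadjusted p 4.65% of all genes tested were higher in old ETP. *Edem1*, which acts in the disposal of misfolded proteins, averaged 175 ± 53.3 CPM in old and 95.1 ± 10.2 CPM in young ETP, and *Xbp1*, for the factor that drives secretion, 157 ± 4.17 CPM in old and 104 ± 2.18 CPM in young ETP. *Slamf7*, which NK cells and dendritic cells also express, was at 71.2 and 467 CPM in old and 9.83 and 28.4 CPM in young ETP. Genes by which plasma cells are often recognised had few fragments. *Mzb1* had 7 and 3 fragments in old and 12 and 0 in young ETP, *Sdc1*, for CD138, 13 and 7 in old and 3 and 3 in young ETP, and *Tnfrsf17*, for BCMA, 3 and 0 in old and 0 in both young libraries. Both old libraries lay above both young for *Sdc1* by CPM, at 1.08 and 1.53 in old and 0.176 and 0.480 in young ETP. *Prdm1*, for the factor Blimp-1, was at 2.25 and 8.93 CPM in old and 2.22 and 3.20 CPM in young ETP, with overlapping libraries. *Fam46c*, for a poly(A) polymerase active in plasma cells, was at 24.8 and 12.4 CPM in old and 3.39 and 0.160 CPM in young ETP (log2 fold change 3.23, adjusted p = 0.682 from edgeR and 0.0236 from DESeq2). It passed the filter only through the old libraries, at 5.22 and 1.64 FPKM, against 0.897 and 0.0252 FPKM in young ETP. Its p-values are therefore descriptions. Of the 18 genes 11 had both old libraries above both young, 0 had both below and 7 overlapped. Among all genes with any fragment 16.2% lay above and 14% below.

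Among 21 other genes of B cell receptor signalling 18 were tested, 14 with higher and 4 with lower estimates (median 0.27), with 0 called by edgeR, 3 higher at an unadjusted p under 0.05 and 2 called by DESeq2. With *Cd79b* and *Blk* the median was 0.17, and -0.11 by limma on log2(FPKM + 1). Many also act in other blood cells. *Dapp1*, an adaptor gene, averaged 400.2 ± 40.0 CPM in old and 397 ± 49.4 CPM in young ETP, and *Inpp5d*, for the phosphatase SHIP1, 409 ± 43.2 CPM in old and 273 ± 3.37 CPM in young ETP.

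**Figure D4:**
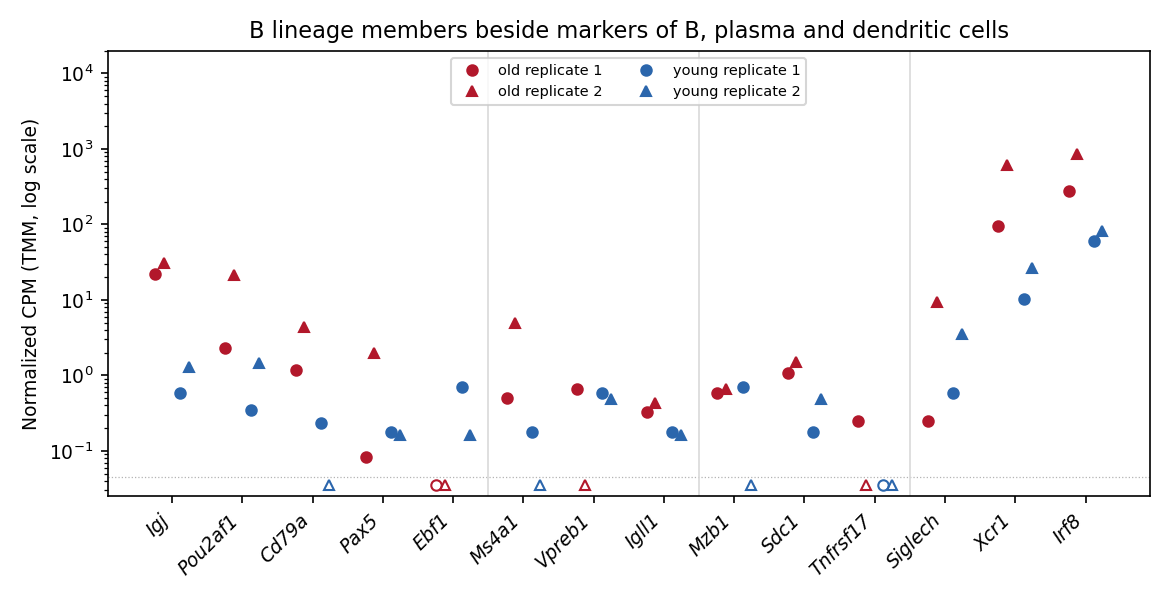
Normalized CPM (log axis) per library of 5 of the B lineage genes (left) beside markers of B cells (*Ms4a1* to *Igll1*), plasma cells (*Mzb1* to *Tnfrsf17*) and dendritic cells (*Siglech* to *Irf8*, the last also expressed by other cells), old ETP in red to the left of young in blue. Open symbols under the dotted line mark 0 fragments. *Igj*, at 22.3 and 30.9 CPM in old and 0.585 and 1.28 CPM in young ETP, is set apart by age, while *Mzb1*, at 0.582 and 0.654 CPM in old and 0.702 and 0 CPM in young ETP, overlaps. Among the other B and plasma cell markers, *Ms4a1*, *Igll1* and *Sdc1* have both old libraries above both young, from few fragments. *Vpreb1* and *Tnfrsf17* overlap.

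Dendritic cell markers had higher levels in the same libraries as *Igj*, *Pou2af1* and *Cd79a*. Of 18 conventional dendritic cell markers 15 were tested, 14 with higher estimates in old ETP (median 3.63, and 2.39 without old replicate 2). By edgeR 0 were called and by DESeq2 12, where DESeq2 called 2.23% of all genes tested. *Zbtb46*, *Batf3*, *Itgae*, *Ccl22* and *Ciita* passed the filter only through the old libraries, so their calls are descriptions. The summed level of the 18 markers was 2672 and 8557 CPM in old and 659 and 784 CPM in young ETP, so it was highest in old replicate 2, as *Pou2af1*, *Cd79a* and *Pax5* were. *H2-Ab1* and *H2-Eb1*, for chains of MHC class II, averaged 2277 ± 1995 and 1233 ± 652 CPM in old and 184 ± 58.4 and 70.8 ± 13.8 CPM in young ETP. Much of the sum came from them, at 866 and 3687 and at 772 and 1694 CPM in old replicates 1 and 2. MHC class II is not particular to dendritic cells, and the mature B cell list holds *Cd74*, for its invariant chain. Of 24 plasmacytoid dendritic cell markers, a cell type that can express *Igj*, *Rag1* and *Dntt*, 16 were tested, 11 with higher and 5 with lower estimates (median 0.27, and 0.01 by limma on log2(FPKM + 1)). Their summed level was 1258 and 2228 CPM in old and 969 and 1414 CPM in young ETP. The defining marker *Siglech* had 3 and 43 fragments (0.249 and 9.37 CPM) in old and 10 and 22 (0.585 and 3.52 CPM) in young ETP, with overlapping libraries. *Klk1* and *Ptprcap* of the list were at 0 in all 4 libraries, and whether this reflects the cells or the counting was not tested. *Tlr9* and *Pld4* of that list, called by DESeq2 with *Irf8*, were at 37.7 and 144 CPM and at 68.0 and 171 CPM in old and at 12.8 and 17.8 CPM and at 21.2 and 18.9 CPM in young ETP. *Runx2* and *Irf8*, both also expressed by other cells, averaged 399.7 ± 0.974 and 571 ± 416 CPM in old and 477 ± 126 and 71.4 ± 16.2 CPM in young ETP. Markers of innate lymphoid, NK and gamma delta T cells (22 in the table, 12 tested, 8 higher and 4 lower, median 0.25, and -0.04 by limma on log2(FPKM + 1)) summed to 504 and 524 CPM in old and 425 and 483 CPM in young ETP, with *Nkg7* at 194 ± 51.9 CPM in old and 217 ± 4.81 CPM in young ETP, *Il17rb* at 46.8 ± 8.19 CPM in old and 46.0 ± 13.1 CPM in young ETP, and *Il17a* at 0 in all libraries. Of the 12, edgeR called 0 and DESeq2 called 3, *Ncr1*, *Klrk1* and *Gzmb*, all higher in old ETP. *Ncr1* and *Klrk1* passed the filter only through the old libraries, so their calls are descriptions. *Ncr1* had 101 and 33 fragments in old and 1 and 2 in young ETP. *Gzmb* was at 37.5 and 20.7 CPM in old and 3.63 and 4.00 CPM in young ETP. Of the 22, 10 had both old libraries above both young, 4 had both below and 8 overlapped. Among all genes with any fragment 16.2% lay above and 14% below. Myeloid markers (16 in the table, 11 tested, 3 higher and 8 lower, median -0.11, and -0.93 without old replicate 1, 0.33 without old replicate 2, 0.50 without young replicate 1 and -0.69 without young replicate 2) summed to 1610 and 788 CPM in old and 2166 and 1402 CPM in young ETP, with *Mpo* at 782 ± 487 CPM in old and 1404 ± 441 CPM in young ETP and *Lyz2* at 158 ± 22.3 CPM in old and 120 ± 11.9 CPM in young ETP. The part of dendritic and other cells in the levels of *Igj*, *Pou2af1* and *Cd79a* was not tested.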

How the data were processed

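RNA of sorted ETP was measured in 2 old and 2 young libraries. Reads were aligned by the authors with STAR 2.3.0 to GRCm38 (mm10), by the paper's methods and the submitters' processing notes. The table deposited is laid out as Cuffdiff writes it (Cufflinks 2.1.1 in those notes). Its estimated counts are fragments the authors assigned to each gene, its scaled signal is the fragments multiplied by the authors' library factor (0.824 and 1.37 for old, 0.723 and 1.20 for young replicates 1 and 2), and its FPKM are the authors' values per transcript length. The treatment of multi-mapped reads is not stated there. The table numbers the libraries of an age 0 and 1, here replicates 1 and 2, and which GEO sample each one is could not be settled. The table names the old condition 20m, where the labels give 72 weeks.

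Estimated counts were rounded and TMM-scaled, and the 10080 genes reaching 1 FPKM in 2 or more libraries were compared by edgeR 4.0.16 (quasi-likelihood, age as the only term, R 4.3.3), Benjamini-Hochberg adjustment and a threshold of 0.05. Of the 10 genes 5 passed the filter. Standard errors are the log2 fold change over the root of the F statistic. The floor of 3 counts was 0.249 and 0.654 CPM in old and 0.176 and 0.480 CPM in young replicates 1 and 2. Intervals and floors cover counting error only, since PCR copies of a molecule are counted as separate reads. Replicates were not copies of each other (chi-square per gene 72.8 in old and 60.7 in young). The alternatives were DESeq2 1.42.0, limma 3.58.1 on log2(FPKM + 1) and log2(FPKM + 0.1), median-of-ratios scaling, other filters, a threshold of 0.1, a replicate term and the omission of each library in turn.

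The genes and the 11 lists, from textbook knowledge, were chosen with earlier results of these data known. Named from each list were the 2 tested genes with the highest level outside the 10. Further genes of the lists, *Ptcra* and *B230118H07Rik* were named after their values were seen. Values of 2 other list genes are not reported here. Positions are from GENCODE M21 and promoter windows from RefSeq (GRCm38.p6), where *Igj* is listed as *Jchain*.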

Additional observations from a re-analysis of the deposited data

How the results depend on the processing

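The count of genes called was 0 of the 5 tested genes and 0 of all 10080 with edgeR. It stayed at 0 for both with median-of-ratios scaling, filterByExpr, limma on either FPKM scale and a threshold of 0.1. DESeq2 called 1 of the 5 (*Igj*) and 225 of all genes. With no filter on low values edgeR called 4 of the 10 (*Dntt*, *Cd79a*, *Pou2af1* and *Igj*, adjusted p = 0.0312, 0.0463, 3.3e-06 and 6.2e-14) and 508 of all 17112. With a library left out the counts ran from 0 to 1 and from 0 to 221, the 1 being *Igj* without old replicate 1 (adjusted p = 0.00601). In those fits the remaining library of the reduced age was taken to vary as the other age did. The sign turned for *Blk* on log2(FPKM + 1) (-0.14), on log2(FPKM + 0.1) (-0.22) and with a library left out (-0.24 to 0.36), for *Cd79b* with a library left out (-0.35 to 0.08) and for the log2 ratio of *Pax5* means with a library left out (-1.01 to 3.55). The median of the myeloid markers also turned with a library left out (-0.93 to 0.50).

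With the replicate number of the table as a term (replicate block), edgeR called 3 of the 5 tested genes, *Rag2* (log2 fold change -1.16, adjusted p = 0.00223), *Dntt* (-1.22, adjusted p = 0.00118) and *Igj* (4.94, adjusted p = 9.6e-06), and 777 of all genes. Differences between replicates 1 and 2 correlated between the ages across genes (r = 0.732, 10080 genes, which are not independent), but no source ties replicate 1 or 2 of one age to that of the other. At the depth of the shallowest library, old replicate 2, levels below 0.654 CPM could not be told from 0, which limits *Ebf1*, *Pax5* and *Cd79a*.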

Other observations

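Several genes tied to B cell identity or function had higher levels in old ETP, most of it in old replicate 2. *Cd22*, for an inhibitory receptor of B cells, was at 3.58 and 18.7 CPM in old and 0.410 and 1.44 CPM in young ETP. *Irf4*, for a factor of plasma cells and of dendritic cells, was at 9.64 and 54.0 CPM in old and 8.31 and 5.45 CPM in young ETP, so old replicate 1 was close to the young libraries. *Ikzf3*, for the Ikaros relative Aiolos, was at 6.82 and 24.8 CPM in old and 2.34 and 4.00 CPM in young ETP. *Fcrla*, for a protein of the Fc receptor family, was at 4.16 and 9.37 CPM in old and 0.176 and 0.480 CPM in young ETP, with a log2 fold change of 4.50 (standard error 0.82, adjusted p = 0.347 from edgeR and 6.4e-04 from DESeq2). It passed the filter only through the old libraries, at 1.094 and 1.545 FPKM, against 0.0584 and 0.0949 FPKM in young ETP. Its p-values are therefore descriptions. These genes were picked after their values were seen, and others of the same lists went the other way. *Bank1* was at 3.08 and 5.01 CPM in old and 7.20 and 7.21 CPM in young ETP. *Ralgps2* was at 33.1 and 42.7 CPM in old and 46.05 and 80.6 CPM in young ETP. Of the 20 early B lineage genes outside the 10, 7 had both old libraries above both young, 2 had both below and 11 overlapped. For the 22 mature B cell genes these counts were 8, 1 and 13. Among all genes with any fragment 16.2% lay above and 14% below.

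The 3 tested genes whose centred log2 levels over the 4 libraries lay nearest to those of *Rag1* were *Pds5b*, *Pter* and *Cep95*, at Euclidean distances of 0.0228, 0.0382 and 0.0462 (CPM + 0.5). *Pds5b*, for a cohesin regulator, was at 199 and 282 CPM in old and 308 and 423 CPM in young ETP. For *Igj* they were *H2-Eb1*, *Sema4f* and *Bmpr1a*, at distances of 0.580, 0.612 and 0.617. *Bmpr1a* was at 22.8 and 30.7 CPM in old and 0.234 and 0.641 CPM in young ETP. With 4 libraries such likeness is a description.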
